A study of Mus musculus with 8 samples.

Results

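The genes described here are 41 genes of central carbon metabolism: 19 of glycolysis with glucose uptake and lactate formation, 7 of the pentose phosphate pathway, and 15 of pyruvate oxidation and the tricarboxylic acid (TCA) cycle. They were taken by symbol, as members of these pathways, from tables of 24413 gene symbols. Transcripts were counted in plasmablasts, the dividing antibody-secreting stage after B cell activation. B220+ cells from spleens of C57BL/6J mice had been cultured with lipopolysaccharide (LPS, 25 µg/ml) for 4 days and sorted as CD22-CD138+ cells. The Jagn1 knockout group (4 mice) was Jagn1fl/fl Mb1Cre+, so that Cre is made from the B cell gene Cd79a and the floxed alleles are lost in the B lineage. The control group (4 mice) was Jagn1fl/fl with no Cre listed, so effects of Cre or of 1 Cd79a allele cannot be told apart from those of Jagn1 loss. The Jagn1 protein sits in the membrane of the endoplasmic reticulum. Cd79a itself fell to 116 to 173 CPM (counts scaled to library size) in the knockout, against 220 to 396 CPM in the control (log2 fold change -1.04 ± 0.19 (SE), edgeR adjusted p = 0.00313).

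Jagn1 had 2, 1, 1 and 1 counts in knockout replicates 1 to 4, against 19, 35, 16 and 99 counts in control replicates 1 to 4, so that the targeted gene was low in every library labelled knockout. Library totals ran from 5882912 to 10066661 counts. Among all genes tested, edgeR called 3.19% lower in the knockout and 2.54% higher (adjusted p under 0.05). Of 8 plasmablast markers, all were detected in both groups, and 5 were lower in the knockout, where their summed level ran from 4898 to 7308 CPM, against 7723 to 12490 CPM in the control. In bulk samples such as these, fewer cells of a type and less RNA per cell cannot be told apart. B cell markers overlapped between the groups, with sums of 472 to 588 CPM in the knockout and 442 to 615 CPM in the control. Summed T cell markers reached 27.8 to 35.1 CPM in the knockout and 40.0 to 50.7 CPM in the control. Summed dendritic cell markers (63.7 to 97.2 CPM in the knockout, 65.6 to 108 CPM in the control) and NK cell markers (0.537 to 2.1 CPM in the knockout, 0.418 to 4.77 CPM in the control) overlapped. Of 12 monocyte, macrophage and neutrophil markers in the files, 5 were detected, and the list summed to 0.94 to 3.31 CPM in the knockout and 1.07 to 2.53 CPM in the control. The other 7, Lyz2, Cd14, S100a8, S100a9, Mpo, Elane and C1qb, had 0 counts in every library. So did 6 of 8 erythroid markers, namely the globin genes Hba-a1, Hba-a2, Hbb-bt and Hbb-bs, with Alas2 and Slc4a1. The erythroid list summed to 0 to 0.262 CPM in the knockout and 0 to 0.876 CPM in the control. Cell cycle genes were lower in the knockout: 10 of 20 G2/M genes and 7 of 20 S phase genes passed the test downward and none upward. Their part in the results below was not tested.

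Glycolysis splits glucose into pyruvate and regenerates its NAD by making lactate, and dividing lymphocytes are known for running it at a high rate. The pentose phosphate pathway branches off after the first step. Its oxidative branch makes NADPH, the reductant of lipid synthesis and of glutathione recycling, and its non-oxidative branch links ribose phosphate for nucleotides to glycolytic sugars. The TCA cycle oxidises acetyl-CoA in mitochondria and supplies citrate for lipids. In antibody-secreting cells these routes also feed sugar nucleotides for glycosylation and energy for secretion.

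Loss of Jagn1 went with lower levels of a few glycolysis transcripts, while most members did not pass the test. Of the 41 genes, 38 had enough counts to be tested with edgeR's quasi-likelihood test over 9904 genes. At an adjusted p under 0.05, 3 were lower in the knockout (7.89% of the 38): the aldolase gene Aldoc, the lactate dehydrogenase gene Ldha and the pyruvate kinase gene Pkm. Over all genes tested, 5.74% were called, with 3.19% lower and 2.54% higher. No member was higher by this test. At an unadjusted p under 0.05, 9 members were lower, 5 of them in glycolysis, and 2 were higher, against 9.72% and 8.30% of all genes. Of higher members, DESeq2 called 0 and limma-voom called 1, Aldoa. In 5 members all 4 knockout libraries lay below all 4 control libraries, and in 1 they lay above, while these arrangements held for 6.64% and 6.45% of all genes tested. The median log2 fold change of the 38 was -0.18, against -0.01 over all genes.

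The 3 pathways had different counts and medians, although the difference between them was not tested. All 3 calls were among the 16 tested glycolysis genes, whose median log2 fold change was -0.27. All 7 pentose phosphate genes had fitted values below 0, with a median of -0.36. In the TCA cycle 7 of 15 were below 0, with a median of 0.00. Summed over its members, glycolysis reached 1695, 1662, 1476 and 1576 CPM in knockout replicates 1 to 4, against 1837, 1807, 1730 and 1910 CPM in control replicates 1 to 4. These ranges did not meet. The pentose phosphate sum was 940 to 1128 CPM in the knockout and 997 to 1522 CPM in the control, and the TCA cycle sum was 1427 to 1811 CPM in the knockout and 1615 to 1780 CPM in the control. Both of these overlapped.

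**Figure D1:**
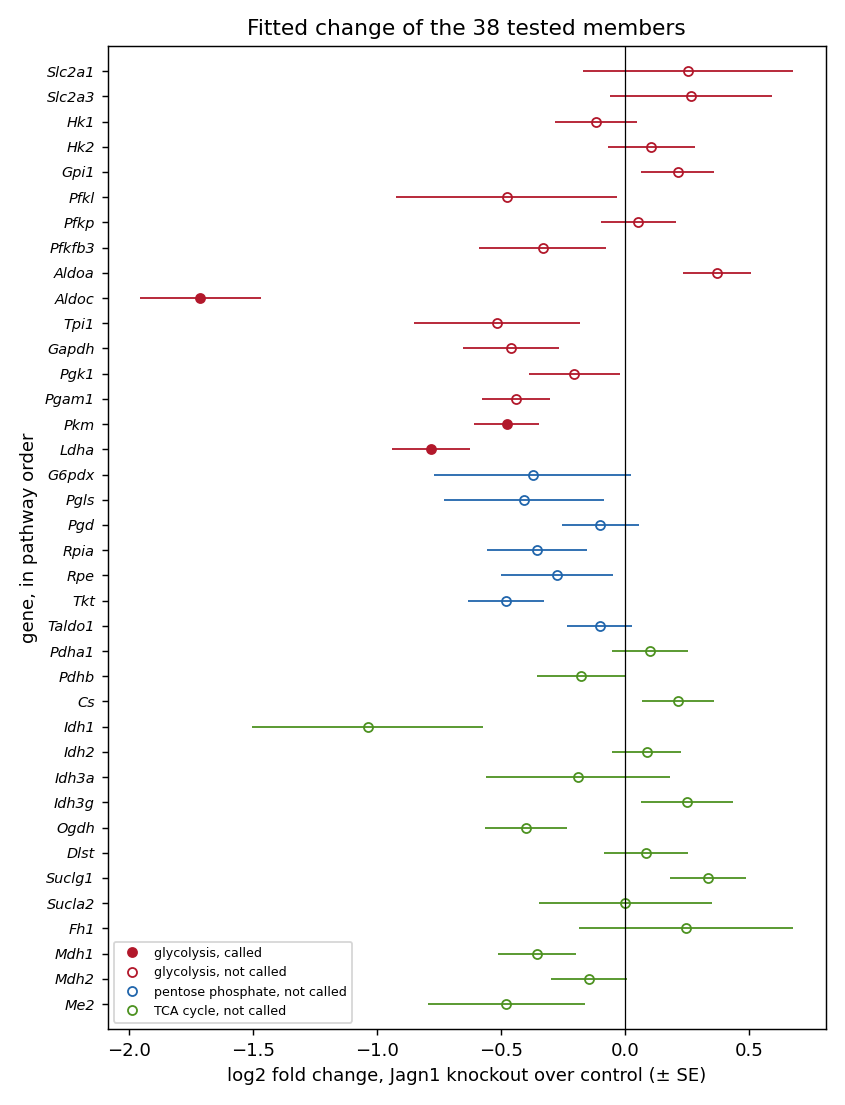
Fitted log2 fold change of the 38 tested genes, Jagn1 knockout over control, with standard errors as bars, in pathway order with glycolysis in red, pentose phosphate in blue and the TCA cycle in green. Filled points passed an adjusted p under 0.05 in edgeR's test: Aldoc (-1.71), Pkm (-0.48) and Ldha (-0.78).

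The entry of glucose showed no called change. The transporter gene Slc2a1 (GLUT1) had 4.59 to 8.59 CPM in the knockout and 1.83 to 7.89 CPM in the control, and Slc2a3 (GLUT3) had 6.25 to 9.20 CPM in the knockout and 4.21 to 9.19 CPM in the control. The hexokinase genes Hk1 and Hk2, whose products trap glucose as its phosphate, averaged 62.3 ± 9.04 and 75.4 ± 14.5 CPM in the knockout, against 67.6 ± 9.04 and 70.1 ± 9.46 CPM in the control (SD, n = 4 each). Gpi1, the isomerase that follows, had 188 to 206 CPM in the knockout and 138 to 206 CPM in the control. Among the phosphofructokinase genes, which encode the committed step, Pfkp took most of the counts, with 94.2 to 113 CPM in the knockout and 88.8 to 125 CPM in the control. Pfkl had 2.89 to 6.56 CPM in the knockout and 2.95 to 11.9 CPM in the control. Pfkm was too rare to test, with 1 count over all knockout libraries and 29 over all control libraries, 27 of them in control replicates 1 and 2. Pfkfb3, which makes the sugar phosphate that activates phosphofructokinase, had 8.63 to 11.5 CPM in the knockout and 8.99 to 16.5 CPM in the control.

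The aldolase step held the largest fitted difference among the 38 tested members, from which Pfkm, Eno1 and Ldhb were left out for their low counts. Aldoc, the aldolase isozyme best known from brain, had 9.0, 9.35, 7.08 and 13.5 CPM in knockout replicates 1 to 4, against 26.1, 27.7, 33.7 and 40.1 CPM in control replicates 1 to 4. Every knockout library was below every control library, and the knockout mean was 30.5% of the control mean. This gave a log2 fold change of -1.71 ± 0.24 (SE) at an edgeR adjusted p of 0.000501. The fold change ran from -1.92 to -1.59 over the 18 alternatives, all of which passed. Aldoa, the aldolase of muscle and most other tissues, lay the other way, with 290, 339, 292 and 259 CPM in the knockout and 254, 206, 234 and 218 CPM in the control. Its groups did not overlap, but its log2 fold change of 0.37 ± 0.14 did not pass (edgeR adjusted p = 0.147; limma-voom 0.0303). Aldoc therefore took 2.37% to 4.93% of the aldolase counts in the knockout and 9.32% to 15.6% in the control. The transcript end of Aldoa has near copies in 2 genes, so the level of Aldoa and this share are uncertain. The difference of -9.08 percentage points had an exact two-sided permutation p of 0.0286, the smallest that 4 against 4 allows. It was 0.2 after adjustment over 7 isozyme families, so that no family could have passed alone. With Aldoc lower and Aldoa higher in every knockout library, the share had to separate. This p was therefore fixed by the values above and adds no support to them.

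The 5 tested genes of the steps from triose phosphates to lactate all had fitted values below 0. Over Gapdh, Pgk1, Pgam1, Pkm and Ldha, with Eno1 and Ldhb adding almost no counts, the summed level was 735 to 900 CPM in the knockout and 1030 to 1220 CPM in the control, while the genes from glucose uptake to triose phosphates summed to 741 to 841 CPM in the knockout and 689 to 792 CPM in the control. This split follows the roles of the enzymes and was looked at with the fitted values known.

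Pkm, which encodes the pyruvate kinase of most tissues, had 239, 244, 202 and 222 CPM in knockout replicates 1 to 4, against 337, 330, 310 and 286 CPM in control replicates 1 to 4. The groups did not overlap, and the knockout mean was 71.9% of that in the control. The log2 fold change of -0.48 ± 0.13 passed narrowly (edgeR adjusted p = 0.0446). The call was lost in 8 of 18 alternatives, among them leaving out any 1 knockout library or control replicate 2 or 3 (adjusted p up to 0.180), with log2 fold changes from -0.53 to -0.42 throughout. Counts at the transcript end do not separate the M1 and M2 splice forms of Pkm.

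Ldha, the lactate dehydrogenase that turns pyruvate into lactate, had 85.9, 83.8, 73.3 and 72.9 CPM in knockout replicates 1 to 4, against 157, 112, 120 and 154 CPM in control replicates 1 to 4. Again no knockout library reached a control library, and the knockout mean was 58.1% of the control mean. The log2 fold change was -0.78 ± 0.16 (edgeR adjusted p = 0.00677), passed in all 18 alternatives and ran from -0.87 to -0.55 over them. Ldhb, the isozyme that favours the return of lactate to pyruvate, had 3 counts over the knockout libraries and 12 over the control libraries, 10 of these in control replicate 1. The end of the Ldhb transcript has a near copy, Gm5514 (298 bases at 98.3% identity), and that of Ldha has near copies in 8 genes. The levels of both are therefore uncertain, and the Ldha share of lactate dehydrogenase cannot be read from these counts.

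Pgam1, the phosphoglycerate mutase gene, was the uncalled glycolysis member with the smallest p. It had 154, 170, 161 and 159 CPM in the knockout and 253, 229, 190 and 203 CPM in the control, with no overlap. The fitted log2 difference of -0.44 ± 0.14 missed the threshold (edgeR adjusted p = 0.0781), and Pgam1 passed in DESeq2 (0.0284) and without control replicate 4 (0.0369). Gapdh, Pgk1 and Tpi1, which were chosen after their values were seen, had their highest value in control replicate 4. Gapdh stood there at 233 CPM, while the knockout ranged from 111 to 146 CPM and the remaining control libraries from 113 to 170 CPM. Tpi1, the triose phosphate isomerase gene, stood at 44.3 CPM in that library, while the knockout ranged from 14.4 to 17.7 CPM and the remaining control libraries from 12.6 to 16.3 CPM. Without that library its log2 fold change was 0.06, against -0.52 with it. Pgk1, the phosphoglycerate kinase gene, had 188 to 274 CPM in the knockout and 183 to 345 CPM in the control. None of the 3 passed the test in the full set. For Gapdh the fitted log2 difference was -0.46 in the full set (edgeR adjusted p = 0.216), -0.61 without control replicate 1 (0.0195) and -0.27 without control replicate 4 (0.346).

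**Figure D2:**
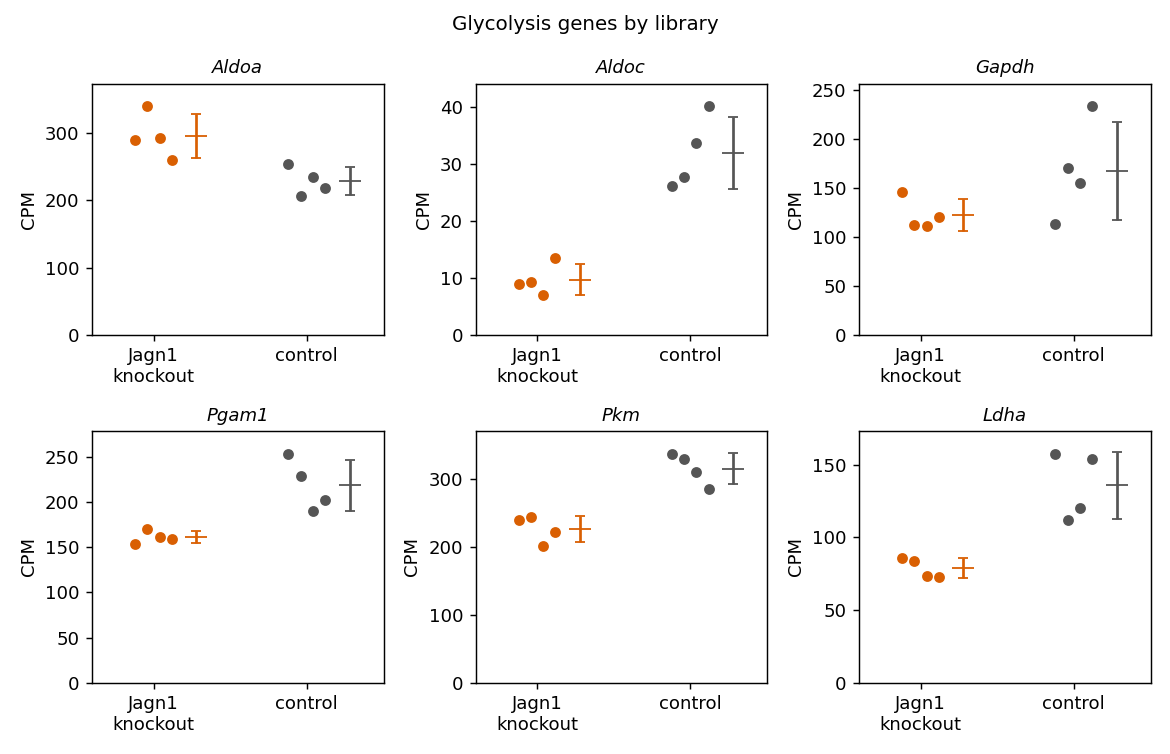
Level in CPM of 6 glycolysis genes in each library, Jagn1 knockout left of control, with the mean and SD of 4 libraries beside the points and axes that start at 0. The groups do not meet for Aldoa, Aldoc, Pgam1, Pkm and Ldha, and they overlap for Gapdh.

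Enolase could not be read. Eno1 had 0 counts in all knockout libraries and 2 counts in all in the control, in a cell type that uses glycolysis. The last 300 bases of its transcript match Eno1b, an intronless copy, over 300 bases at 100% identity, and match 4 processed pseudogenes at 95% identity or more. Eno1b itself had at most 11 counts in any library. Near copies of the transcript end were also found for other members: 8 genes for Ldha, 4 for Pkm, 2 for Aldoa (1 of them, Aldoart1, in the count files), 2 for Tpi1, 1 for Gpi1, 1 for Ldhb and 135 for Gapdh, against 0 for Aldoc, Pgk1 and Pgam1. The sources used here do not say how reads that fit several places were handled, so levels of the genes with copies are uncertain, and their part in the differences was not tested. On the same strand, exons of Pkm also share 767 bases with Gm49759 and those of Pgls 776 bases with Fam129c. On the opposite strand, G6pdx shares 418 bases with Ikbkg, Pfkp 748 with Pitrm1, Gpi1 741 with Gm26762, Pdha1 603 with Map3k15 and Rpe 558 with Kansl1l, which matters only if strand was not used in counting.

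The stretches of 250 bases before the annotated starts of Aldoc, Ldha and Pkm are shown because these are the members that fell, and that of Aldoa because it encodes the sister enzyme of Aldoc and did not fall. They come from RefSeq (GRCm38.p6, the mm10 build) and are written 5′ to 3′ on the gene's strand. Capitals mark ACGTG and GCGTG on either strand (CACGT and CACGC on the printed strand), the core letters that the hypoxia-inducible factor HIF-1 reads; ACGTG overlaps the palindrome CACGTG, which MYC reads. Aldoc lies at chr11:78322823-78323072 on the plus strand, Ldha at chr7:46845554-46845803 on the plus strand, Pkm at chr9:59656977-59657226 on the plus strand and Aldoa at chr7:126799255-126799504 on the minus strand. Where a gene has several annotated starts, the one with the most matches was taken.
Aldoc: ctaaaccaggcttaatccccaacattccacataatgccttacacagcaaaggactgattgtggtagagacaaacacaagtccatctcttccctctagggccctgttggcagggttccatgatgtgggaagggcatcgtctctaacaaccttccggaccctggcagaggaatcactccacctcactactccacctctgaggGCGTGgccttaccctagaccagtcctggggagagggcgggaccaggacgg
Ldha: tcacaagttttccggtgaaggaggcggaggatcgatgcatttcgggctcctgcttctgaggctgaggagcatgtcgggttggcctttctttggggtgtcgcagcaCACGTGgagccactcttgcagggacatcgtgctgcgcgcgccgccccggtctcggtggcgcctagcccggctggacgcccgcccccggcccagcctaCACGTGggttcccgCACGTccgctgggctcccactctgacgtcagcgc
Pkm: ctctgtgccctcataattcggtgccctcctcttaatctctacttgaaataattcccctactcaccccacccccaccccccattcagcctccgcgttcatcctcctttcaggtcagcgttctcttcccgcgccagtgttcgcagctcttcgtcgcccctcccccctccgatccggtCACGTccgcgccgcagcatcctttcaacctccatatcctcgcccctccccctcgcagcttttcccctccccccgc
Aldoa: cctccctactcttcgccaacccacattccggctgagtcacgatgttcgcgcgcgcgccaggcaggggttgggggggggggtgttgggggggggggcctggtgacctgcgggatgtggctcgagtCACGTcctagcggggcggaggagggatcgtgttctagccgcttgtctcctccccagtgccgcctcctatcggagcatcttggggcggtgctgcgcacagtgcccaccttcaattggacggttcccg

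The Ldha stretch holds CACGTG at 2 places and CACGT at 1 more, nearer to the start. Aldoc has a single GCGTG core, 50 bases before the start, and Pkm and Aldoa have a single CACGT each. Promoters were found for 38 of the 41 members, with 57 windows. One of the cores was present in 80% of 30 glycolysis windows, 75% of 8 pentose phosphate windows and 78.9% of 19 TCA cycle windows, against 38.6% of 32851 windows of all genes. The core CACGTG was present in 10% of glycolysis windows (windows of Ldha, Pfkfb3 and Pfkm), 15.8% of TCA cycle windows and 0% of pentose phosphate windows, against 6.02% of all. Genes with several starts give several windows that can overlap: Ogdh alone gives 6 of the 19 TCA cycle windows and all 3 of those with CACGTG. The windows of all genes were not matched to those of the members by base composition or level, and the differences in share were not tested. Letters in a window are a description, not a binding site. Of 22 other genes known as HIF-1 targets, 18 were tested. Of these, 0 passed downward and 2 upward, against 3.19% and 2.54% of all genes tested. The median log2 fold change of the 18 was 0.05. At an unadjusted p under 0.05, 2 were lower and 5 higher, against 9.72% and 8.30% of all genes. Their summed level was 1173 to 1251 CPM in the knockout and 785 to 855 CPM in the control, ranges that did not meet. A sum is weighted to the most abundant genes, and of the 18 fitted values 8 were below 0 and 10 above. The genes that passed were Ero1l, an oxidase of protein folding in the endoplasmic reticulum (1.40 ± 0.17, edgeR adjusted p = 0.000121), and Ddit4, a stress-induced inhibitor of mTORC1 (1.13 ± 0.24, adjusted p = 0.00956). Hif1a itself had 19.5 to 28.7 CPM in the knockout and 22.0 to 29.5 CPM in the control, which overlapped.

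No pentose phosphate gene passed edgeR's test in either direction. At an unadjusted p under 0.05, 1 of 7 was lower, against 9.72% of all genes tested. DESeq2 and limma-voom each called 1 lower, in both cases Tkt. In the oxidative branch, G6pdx, the glucose-6-phosphate dehydrogenase gene and gate of the pathway, was at a low level, with 4.16, 2.59, 5.38 and 5.77 CPM in knockout replicates 1 to 4, against 2.95, 6.12, 5.71 and 8.37 CPM in control replicates 1 to 4. The groups overlapped (log2 fold change -0.37 ± 0.40), and the fitted value was -0.14 without control replicate 4, -0.18 without knockout replicate 2 and -0.59 without control replicate 1. Pgls, the lactonase gene, had 374, 248, 254 and 198 CPM in the knockout and 642, 345, 263 and 178 CPM in the control. Its control libraries spread more widely than the groups differed, and the fitted log2 difference of -0.41 ± 0.32 became 0.04 once control replicate 1 was left out. Pgd, which encodes the second NADPH-making enzyme of the branch, had 234, 237, 211 and 222 CPM in the knockout and 292, 256, 243 and 177 CPM in the control. The knockout values lay within the control range.

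In the non-oxidative branch, Tkt, the transketolase gene, had 113, 147, 117 and 107 CPM in knockout replicates 1 to 4, against 190, 162, 180 and 143 CPM in control replicates 1 to 4. Only knockout replicate 2 reached above the lowest control library. The fitted log2 difference of -0.48 ± 0.15 missed the threshold (edgeR adjusted p = 0.0841). Tkt passed in DESeq2 (0.0398) and limma-voom (0.0386), and in edgeR when control replicate 4 (0.0233) or both control replicates 4 and 1 (0.0337) were left out. Rpia and Rpe, the isomerase and epimerase of pentose phosphates, had 72.1 to 108 CPM and 19.4 to 28.5 CPM in the knockout, against 70.4 to 135 CPM and 17.8 to 34.9 CPM in the control. Control replicate 1 gave the lowest Rpia value of its group, 70.4 CPM, with the other control libraries at 124 CPM or more, and Rpia passed without it (log2 fold change -0.53, edgeR adjusted p = 0.0373). Taldo1, the transaldolase gene, had 277 to 293 CPM in the knockout and 259 to 332 CPM in the control. The 4 non-oxidative genes summed to 516, 548, 499 and 514 CPM in the knockout and 586, 583, 667 and 634 CPM in the control, ranges that did not meet. The 3 oxidative genes summed to 426 to 612 CPM in the knockout and 363 to 937 CPM in the control, which overlapped.

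No gene of pyruvate oxidation or the TCA cycle passed edgeR's test in either direction. At an unadjusted p under 0.05, 3 of 15 were lower and 1 was higher, against 9.72% and 8.30% of all genes tested, and DESeq2 and limma-voom called 0. Pdha1 and Pdhb, subunits of the pyruvate dehydrogenase that admits carbon to the cycle, averaged 104 ± 7.88 and 51.4 ± 10.2 CPM in the knockout, against 96.7 ± 14.6 and 58.1 ± 7.24 CPM in the control. Cs, the citrate synthase gene, averaged 82.0 ± 7.04 CPM in the knockout and 70.7 ± 5.50 CPM in the control (SD, n = 4 each).

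Ogdh, the first subunit of the oxoglutarate dehydrogenase complex, had 51.7, 35.9, 43.8 and 40.9 CPM in knockout replicates 1 to 4, against 57.9, 55.3, 52.8 and 61.3 CPM in control replicates 1 to 4. The groups were apart by a narrow margin, and the log2 fold change of -0.40 ± 0.16 did not pass (edgeR adjusted p = 0.201), nor did it in any of the 18 alternatives. Dlst, the second subunit of that complex, had 85.1 to 117 CPM in the knockout and 67.8 to 103 CPM in the control. Suclg1 and Sucla2, subunits of succinyl-CoA ligase, averaged 96.8 ± 11 and 26.4 ± 4.90 CPM in the knockout, against 76.8 ± 9.22 and 26.3 ± 13.9 CPM in the control (SD, n = 4 each). Mdh2, the malate dehydrogenase of the cycle, had 769, 667, 665 and 530 CPM in the knockout and 886, 721, 646 and 657 CPM in the control, which overlapped (log2 fold change -0.15 ± 0.15). Its fitted value was -0.036 without control replicate 1, -0.058 without knockout replicate 4 and -0.23 without knockout replicate 1. Its cytosolic partner Mdh1 had 125 to 161 CPM in the knockout and 151 to 221 CPM in the control, and Me2, the mitochondrial malic enzyme, 5.12 to 13.7 CPM in the knockout and 9.74 to 13.4 CPM in the control. The NAD-dependent isocitrate dehydrogenase genes Idh3a and Idh3g had 3.37 to 4.59 and 133 to 239 CPM in the knockout, against 3.70 to 6.28 and 129 to 188 CPM in the control. Fh1, the fumarase gene, had 5.12 to 6.01 CPM in the knockout and 1.69 to 8.76 CPM in the control.

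The NADPH-making members lie in 2 pathways: G6pdx and Pgd in the pentose phosphate pathway, and the NADP-dependent isocitrate dehydrogenases Idh1, of the cytosol, and Idh2, of mitochondria. None of the 4 passed edgeR's test, and DESeq2 and limma-voom called 0. At an unadjusted p under 0.05, 1 of the 4 was lower, against 9.72% of all genes tested. Idh1 had 6.44, 8.05, 5.9 and 5.77 CPM in knockout replicates 1 to 4, against 2.67, 10.3, 15 and 25.3 CPM in control replicates 1 to 4. Control replicate 1 was below all knockout libraries and the other control libraries were above them. The fitted log2 difference of -1.04 ± 0.47 missed the threshold (edgeR adjusted p = 0.248), and leaving out control replicate 1 made it -1.38 (adjusted p = 0.00651). Leaving out control replicate 4 made it -0.52. Idh2 had 114, 128, 109 and 108 CPM in the knockout and 101, 116, 99.3 and 117 CPM in the control, with a log2 fold change of 0.09 ± 0.14 that ran from 0.034 to 0.12 on leaving out 1 library. Summed, the 4 genes reached 358, 376, 331 and 342 CPM in the knockout and 398, 389, 363 and 327 CPM in the control, which overlapped.

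Outside these members, 9 of 12 further genes of NADPH and NADP supply were tested. By edgeR, 3 were higher, namely Mthfd2, Aldh1l2 and Nadk, and 0 were lower, against 2.54% of all genes higher and 3.19% lower. At an unadjusted p under 0.05, 4 were higher and 0 lower, against 8.30% and 9.72% of all genes tested. The summed level of this list was 506 to 665 CPM in the knockout and 306 to 412 CPM in the control. Mthfd2, a mitochondrial folate dehydrogenase that reduces NAD or NADP, had 373, 384, 348 and 280 CPM in the knockout and 208, 204, 147 and 164 CPM in the control (log2 fold change 0.94 ± 0.16, edgeR adjusted p = 0.00190). Aldh1l2, the mitochondrial enzyme that makes NADPH from formyl-folate, had 57.6, 68.2, 58.1 and 50.02 CPM in the knockout and 11.5, 12.4, 8.63 and 3.02 CPM in the control (log2 fold change 2.74 ± 0.32, edgeR adjusted p = 0.000116). Nadk, which makes NADP from NAD, had 20.01, 14.4, 20.6 and 13.1 CPM in the knockout and 7.30, 9.02, 10.03 and 9.45 CPM in the control (log2 fold change 0.92 ± 0.25, edgeR adjusted p = 0.0397). All 3 were above the control in every knockout library. The difference between this list and the members was not tested.

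**Figure D3:**
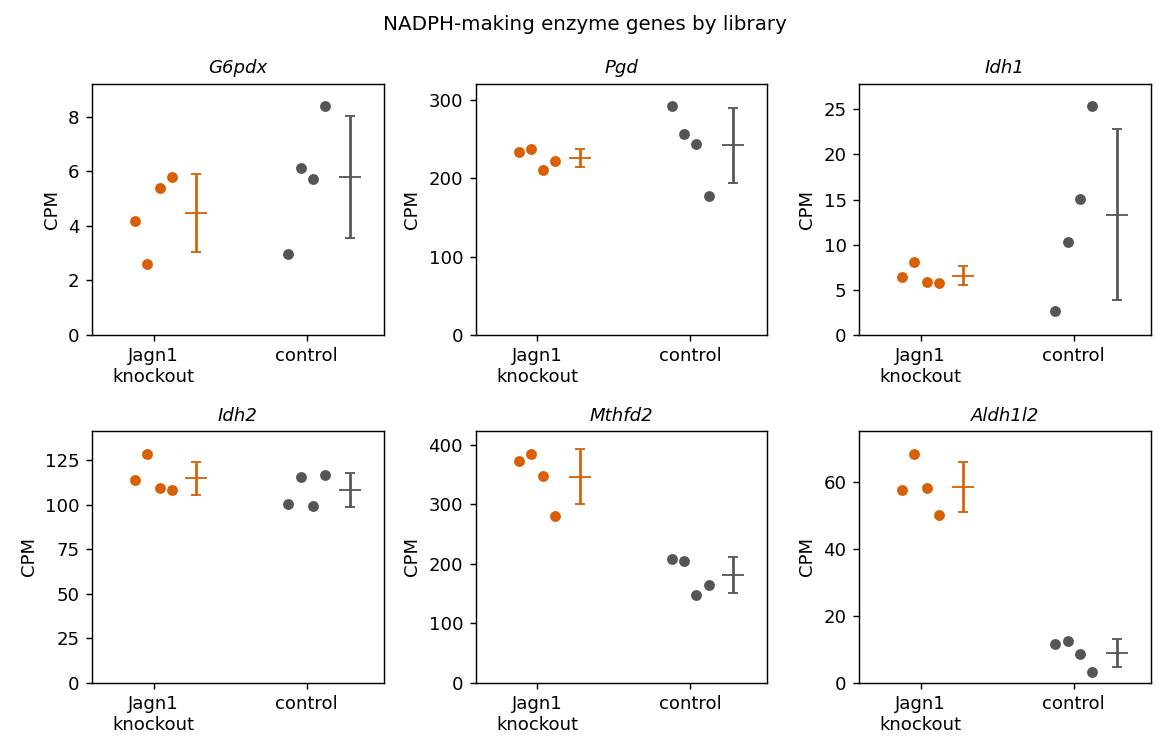
Level in CPM of the 4 NADPH-making members and of Mthfd2 and Aldh1l2 in each library, Jagn1 knockout left of control, with the mean and SD of 4 libraries beside the points and axes that start at 0. G6pdx, Pgd, Idh1 and Idh2 overlap between the groups, while Mthfd2 and Aldh1l2 do not.

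Other genes of the same pathways passed in both directions. For comparison, edgeR called 3.19% of all genes tested lower and 2.54% higher. At an unadjusted p under 0.05 these shares were 9.72% and 8.30%. Of 35 further glycolysis and glucose entry genes, 17 were tested, 1 was lower and 1 was higher. At an unadjusted p under 0.05, 8 were lower and 1 was higher, and the summed level was 733 to 870 CPM in the knockout and 967 to 1137 CPM in the control, ranges that did not meet. Galk1, the galactokinase gene, fell to 65.0 ± 11.3 CPM in the knockout, against 118 ± 24.8 CPM in the control, and Slc2a6, a lysosomal relative of the glucose transporters, rose to 10.7 ± 3.48 CPM in the knockout, against 3.81 ± 1.22 CPM in the control (SD, n = 4 each; edgeR adjusted p = 0.00806 and 0.0191). Of 11 further pentose phosphate and ribose genes, 6 were tested and 1 was lower: Prps2, which activates ribose phosphate for nucleotide synthesis (log2 fold change -0.95 ± 0.22, edgeR adjusted p = 0.0177). At an unadjusted p under 0.05, 2 were lower and 1 was higher, and the summed level was 185 to 214 CPM in the knockout and 246 to 263 CPM in the control. Of 34 further genes of the TCA cycle and pyruvate entry, 29 were tested, 0 were lower and 3 were higher, with 5 lower and 5 higher at an unadjusted p under 0.05. These were Pck2, Gpt2 and Got1, which join cycle intermediates to phosphoenolpyruvate, alanine and aspartate. Pck2 had 301 to 420 CPM in the knockout and 166 to 209 CPM in the control, Gpt2 59.8 to 83.6 CPM in the knockout and 24.0 to 42.1 CPM in the control, and Got1 73.0 to 100.4 CPM in the knockout and 30.6 to 67.1 CPM in the control. Pdk1, the kinase that shuts pyruvate dehydrogenase, did not pass (log2 fold change -0.40 ± 0.36).

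The other isozyme shares overlapped between the groups. Hk2 took 54.5 ± 5.18% of hexokinase counts in the knockout and 50.9 ± 4.51% in the control, and Pfkp took 95.8 ± 1.67% of phosphofructokinase counts in the knockout and 93.0 ± 4.91% in the control. Slc2a3 took 57.9 ± 9.17% of the 2 glucose transporters in the knockout and 59.0 ± 14.2% in the control. Idh2 took 94.6 ± 0.382% of NADP-dependent isocitrate dehydrogenase counts in the knockout and 89.6 ± 6.54% in the control, and Mdh2 took 82.3 ± 2.06% of malate dehydrogenase counts in the knockout and 80.02 ± 4.75% in the control (SD, n = 4 each). The exact two-sided permutation p of these and of the Ldhb share, which near copies make uncertain, ran from 0.229 to 0.914.

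Control replicates 1 and 4 were most often at an end of the control range. Of the 38 tested members, control replicate 1 was the lowest or highest control library in 27 and control replicate 4 in 29. Control replicates 2 and 3 were so in 10 each. In a group of 4 libraries, 2 are at an end for each member. Knockout replicate 4 was at an end of its own group in 26, against 19, 14 and 17 for knockout replicates 1 to 3. With control replicates 1 and 4 both left out, 5 members were lower, namely Aldoc, Ldha, Pkm, Rpia and Tkt, against 3 in the full set. Calls over all genes, in either direction, rose from 568 to 901 in the same fit.

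**Figure D4:**
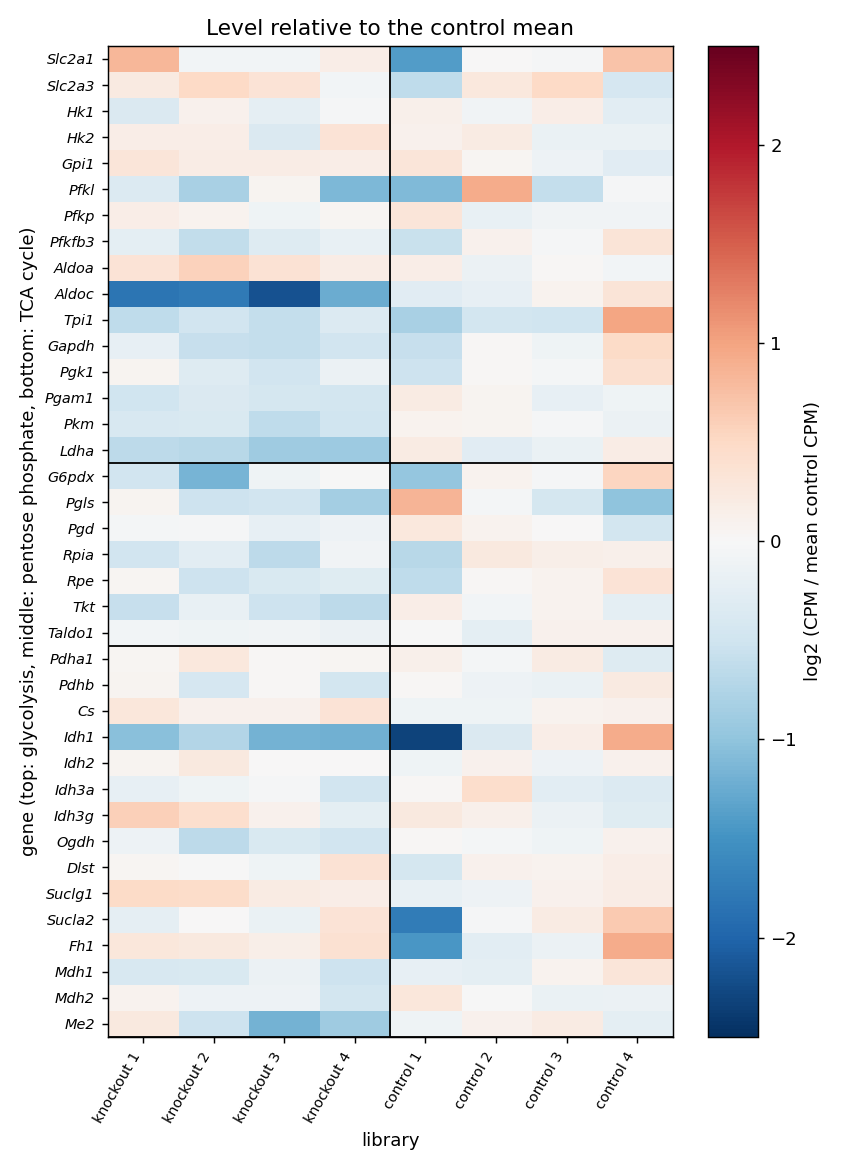
Level of each tested gene in each library as log2 of its CPM over the control mean, with the Jagn1 knockout left of the control and the pathways divided by horizontal lines. Aldoc and Ldha are below the control mean in all 4 knockout libraries, as are other members such as Pkm, Pgam1, Tkt and Gapdh. Control replicates 1 and 4 deviate in opposite directions for Tpi1, Idh1, Sucla2 and Fh1.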

How the data were processed

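The 8 libraries, 4 Jagn1 knockout and 4 control, were grouped by sample title. Per the labels' protocols, libraries were made from 500 ng of total RNA of sorted cells with the QuantSeq 3′ FWD kit, which reads the transcript end, so counts were not divided by gene length. Each deposited file holds raw whole-number read counts per gene symbol. The submitters' processing notes list mm10, HTSeq 0.6.1, TopHat2 2.1.1, BWA 0.7.12 and SAMtools 1.3.1. Those notes do not state their roles, the annotation, the strand setting or molecular identifiers. The floor of 3 counts given below covers counting error only, while SD and SE include the spread between libraries.

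Genes passing filterByExpr (minimum count 10, minimum total 15) were tested with edgeR 4.0.16 (R 4.3.3): TMM factors, robust quasi-likelihood F-test with group as the only term, two-sided, Benjamini-Hochberg adjustment over all 9904 genes, threshold 0.05. SE is the log2 fold change over the square root of F. CPM uses TMM-scaled totals of the tested genes, and 3 counts equal 0.292 to 0.483 CPM. Counts of any pair of replicates differed by more than sampling noise (chi-square per degree of freedom 6.60 to 94.2). Isozyme shares used exact permutation tests over libraries. The steps were tested on simulated data. Alternatives were DESeq2 1.42.0, limma-voom (limma 3.58.1) with sample weights, other scalings and filters, no robust estimation, a replicate block, and leaving out libraries. Transcript ends were aligned to GENCODE M21 transcripts (at least 50 bases at 95% identity). Promoters are from RefSeq, matched by symbol. Described in full are called members, NADPH-making members and, per pathway, the uncalled members with the smallest p and the highest level. The members, lists and families were chosen with earlier results of these data known. The labels state 4 mice per genotype, so p-values measure the spread between mice.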

Additional observations from a re-analysis of the deposited data

Results flagged for a closer look

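In 5 of 76 groups of 4 libraries, 1 library stood apart from the other 3 by a gap above Dixon's critical value; chance gives about 1 in 20 groups. Gpi1 was at 206 CPM in knockout replicate 1, against 188 to 191 CPM in the other knockout libraries. Pdha1 was at 115 CPM in knockout replicate 2, against 98.9 to 101 CPM in the others. Tpi1 reached 44.3 CPM in control replicate 4, while control replicates 1 to 3 had 12.6 to 16.3 CPM. In control replicate 1, Rpia was at 70.4 CPM, against 124 to 135 CPM in the others, and Dlst was at 67.8 CPM, against 97.2 to 103 CPM in the others.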

How the results depend on the processing

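The calls of Aldoc and Ldha held in all 18 alternatives. The call of Pkm was lost in 8: without a filter on low counts, with the replicate block, and on leaving out any knockout library or control replicate 2 or 3. Members called lower numbered 3, and 5 with DESeq2, 5 without control replicates 1 and 4 together, and 2 to 6 on leaving out 1 library (6 without control replicate 1, 5 without control replicate 4). Glycolysis calls ran from 2 to 4. Pentose phosphate calls were 0, and 1 with DESeq2, 1 with limma-voom, 2 without control replicates 1 and 4, and 0 to 1 on leaving out 1 library. TCA cycle calls were 0 to 1 on leaving out 1 library, the 1 being Idh1 without control replicate 1. Members called higher were 0, and 1 with limma-voom. Over all genes 568 were called, 858 with DESeq2, 1054 with limma-voom, 901 without control replicates 1 and 4, and 270 to 892 on leaving out 1 library. With the replicate number as a block 509 genes and 2 members lower were called. The deviations of same-numbered libraries had correlations of -0.003 to 0.07. With so few libraries this cannot settle whether the numbers pair them. Leaving out 1 library gave log2 fold changes of -0.64 to 0.0403 for Pgls and -0.24 to 0.0044 for Pgd, above 0 in each case without control replicate 1. On leaving out 1 library the share of Aldoc differed by -10.1 to -8.01 points, and that of Ldhb by -0.212 to 0.0829 points (0.125 without control replicates 1 and 4). The share of Slc2a3 differed by -8.01 to 2.53 points. The causes were not tested. Members near 5 CPM, such as G6pdx, Slc2a1, Fh1, Idh3a and Pfkl, had standard errors of 0.37 to 0.45. Differences of moderate size could not be detected with errors of this size, and the part of sequencing depth in them was not tested.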
